A study of Rattus norvegicus with 12 samples.

Results

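The genes described here are 10 immediate early genes (Fos, Jun, Junb, Egr1, Btg2, Ier2, Ier3, Atf3, Zfp36 and Dusp1), taken by gene symbol from 3 tables of raw read counts from rat liver that were joined on the gene name. The joined counts hold 16558 genes and include 9 of the 10. Ier2 was not analysed here. All 9 passed the filter on low counts, which kept 12355 genes, and their counts ran from 57 to 17525 per library.

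Liver RNA was sequenced from 4 groups of rats of the outbred Sprague Dawley stock, with 3 libraries a group. Both didymin arms, called arm G (libraries G.1, G.3 and G.4) and arm D (D.1, D.4 and D.7) after the letters of their columns, received a high-fat diet and didymin, a flavonoid glycoside of citrus fruit. The model group (M.5, M.6 and M2.1) had the high-fat diet for 8 weeks and no didymin, so both arms carry the diet as well. The normal group (N.1, N.2 and N.3), titled wt (wild type) in the sample labels, was given saline. The titles of the other groups name no genotype. The arms had different doses, and no label ties a letter to the low or the high dose. The diet of the normal group, the sex and age of the animals and the time from the last treatment to tissue collection were not given in the sources used here.

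Immediate early genes are transcribed within minutes of a growth factor, cytokine or stress signal, from factors that the cell already holds, and most of their mRNAs decay quickly. Serum response factor and its partners act on them through CArG boxes, and CREB through cAMP response elements (CRE), both downstream of kinase cascades such as ERK, JNK and p38. The family holds transcription factors (Fos, Jun, Junb, Atf3 and Egr1) and also proteins that end the response: Dusp1, a phosphatase of MAP kinases, and Zfp36, which binds AU-rich elements and promotes mRNA decay. In liver, Fos, Jun and Egr1 are known for their prompt induction after partial hepatectomy.

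The upstream sequences of 5 members, all that were matched by symbol in the RefSeq table (build GRCr8), are printed. Among them, Junb has the smallest p of the members. The ratios within libraries given below set Dusp1 apart from Egr1, Btg2 and Zfp36. Each run holds the 250 bases before the annotated start, 5′ to 3′ on the gene's strand, with motif matches in capitals. The motifs searched were TGACGTCA (CRE), TGACG (the core of the CRE, which also lies inside each full CRE), TGANTCA (the AP-1 site), GCGNGGGCG (the site of EGR proteins) and the CArG box, all on both strands, and TATAAA on the gene's strand alone. The window of Junb is chr19:40080876-40081125 (forward strand), that of Egr1 chr18:26736828-26737077 (forward), that of Btg2 chr13:48087691-48087940 (reverse), that of Zfp36 chr1:92799109-92799358 (reverse) and that of Dusp1 chr10:17184603-17184852 (forward).
Egr1: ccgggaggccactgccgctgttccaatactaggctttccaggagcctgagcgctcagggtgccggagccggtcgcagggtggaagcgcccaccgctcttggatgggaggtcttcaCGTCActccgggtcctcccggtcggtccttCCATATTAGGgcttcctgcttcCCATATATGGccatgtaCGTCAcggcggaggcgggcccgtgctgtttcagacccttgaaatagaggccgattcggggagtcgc
Junb: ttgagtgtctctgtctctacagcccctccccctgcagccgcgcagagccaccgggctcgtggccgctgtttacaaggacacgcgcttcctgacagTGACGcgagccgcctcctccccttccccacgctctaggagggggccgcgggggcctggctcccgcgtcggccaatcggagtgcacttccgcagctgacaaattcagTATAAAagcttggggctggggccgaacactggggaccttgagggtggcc
Btg2: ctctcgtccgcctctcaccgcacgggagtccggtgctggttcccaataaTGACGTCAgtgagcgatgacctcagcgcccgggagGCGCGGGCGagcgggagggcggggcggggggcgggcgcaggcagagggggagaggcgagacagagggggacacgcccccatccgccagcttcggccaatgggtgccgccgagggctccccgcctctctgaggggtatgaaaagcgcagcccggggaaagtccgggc
Zfp36: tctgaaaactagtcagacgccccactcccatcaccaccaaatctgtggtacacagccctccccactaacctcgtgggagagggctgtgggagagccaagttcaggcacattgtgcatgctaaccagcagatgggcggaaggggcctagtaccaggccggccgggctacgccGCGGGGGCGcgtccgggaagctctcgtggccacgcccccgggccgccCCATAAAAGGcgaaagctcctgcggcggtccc
Dusp1: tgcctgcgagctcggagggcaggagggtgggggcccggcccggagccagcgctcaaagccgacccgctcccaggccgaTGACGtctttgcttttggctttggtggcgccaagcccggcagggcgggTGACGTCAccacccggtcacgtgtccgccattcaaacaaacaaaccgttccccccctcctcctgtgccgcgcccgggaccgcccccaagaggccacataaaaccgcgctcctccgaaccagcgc
Egr1 held 2 CArG boxes, at −105 and −83 from the start, and 2 CRE cores outside a full CRE. Zfp36 held a CArG box at −32, and an EGR site at −79. Full CREs lay in Btg2 (−201) and Dusp1 (−124). Btg2 also had an EGR site at −166, and Dusp1 a further CRE core at −172. Junb had a single CRE core at −155 and a TATAAA at −49. The AP-1 letters matched in 0 of the 5. Of 33469 upstream sequences of the same length, 1.5% held a CArG box, 1.59% a full CRE, 18.2% a CRE core, 4.29% an EGR site, 6.34% an AP-1 site and 8.06% TATAAA. A match is a description of letters and not a bound site. Fos, Jun, Ier3 and Atf3 are named only, since no upstream sequence was matched for them.

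Before the members, the libraries themselves differed. Total counts were 12469914 to 15521648 per library. The 13 genes of the mitochondrial genome took 60.95% of the counts in G.3 and 44.1% of those in M.6, while the other 10 libraries had 3.85% to 18.8%. All 7 hepatocyte markers (Alb, Apoa1, Ttr and others) passed the filter, and their summed level was lowest in G.3 (43970 CPM) and M.6 (73810 CPM), against 143600 to 190800 CPM elsewhere. CPM are counts relative to the TMM-scaled library size. Summed over 4 of 8 listed neutrophil markers that passed the filter, the same 2 libraries were highest, with 40.7 CPM in G.3 and 37.3 CPM in M.6. The 10 Kupffer cell markers (macrophages of the liver) all passed the filter. They summed to 381 to 819.5 CPM in arm G, 557 to 1653 CPM in arm D, 281 to 616 CPM in the model and 568 to 765 CPM in normal liver. In arm D against the model 10 of 10 were higher at an unadjusted p under 0.05, against 3.04% of tested genes. Their median log2 fold change was 1.40. The 6 sinusoidal endothelium markers summed to 139.6 to 247.4 CPM in arm G, at most 289.3 CPM in arm D, 133.9 to 202.6 CPM in the model and 194.8 to 252.3 CPM in normal liver. All 3 libraries of arm D lay above the model and above arm G on this sum, and 3 of 6 had an unadjusted p under 0.05 with higher values in arm D than in the model. The 5 tested B and plasma cell markers summed to 26.5 to 40.9 CPM in arm G, 32.9 to 34.1 CPM in arm D, 9.33 to 26.7 CPM in the model and 5.23 to 16.4 CPM in normal liver. Of the 7 T and NK cell markers, 5 were higher in arm G than in normal liver at an unadjusted p under 0.05, against 4.42% of tested genes. The part of these markers in the results below was not tested. In bulk tissue, fewer cells of a type and less RNA per cell cannot be told apart.

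Across the 4 groups, most of the members had their highest levels in the didymin libraries, but none passed the test over all genes. With edgeR's quasi-likelihood test and Benjamini-Hochberg adjustment over 12355 genes, 0 of 9 members had an adjusted p under 0.05 in any of the 6 pairwise comparisons, in the comparisons of both arms together, or in the test for a difference between any groups. The background was the same, with 0.0% of all tested genes called in each of them. Without adjustment, arm G was higher than the model at p under 0.05 for 7 of 9 members, against 1.2% of tested genes, and lower for 0, against 1.13%. Arm D was higher than the model for 4 of 9, against 3.04% of tested genes, and lower for 0, against 3.24%. The model and normal livers differed for 0 of 9 in either direction, where 3.01% of tested genes were higher and 1.9% lower. DESeq2 called 1 member, Junb, in arm G against the model, where it called 5 genes in all (0.0405% of those with an adjusted p), and in arm G against normal liver, where it called 51 (0.413%). It also called 1 member in the test for any group (0.786% of genes called), in both arms against the model (0.0496%) and in both arms against normal liver (0.754%). limma-voom called 0 members.

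**Figure D1:**
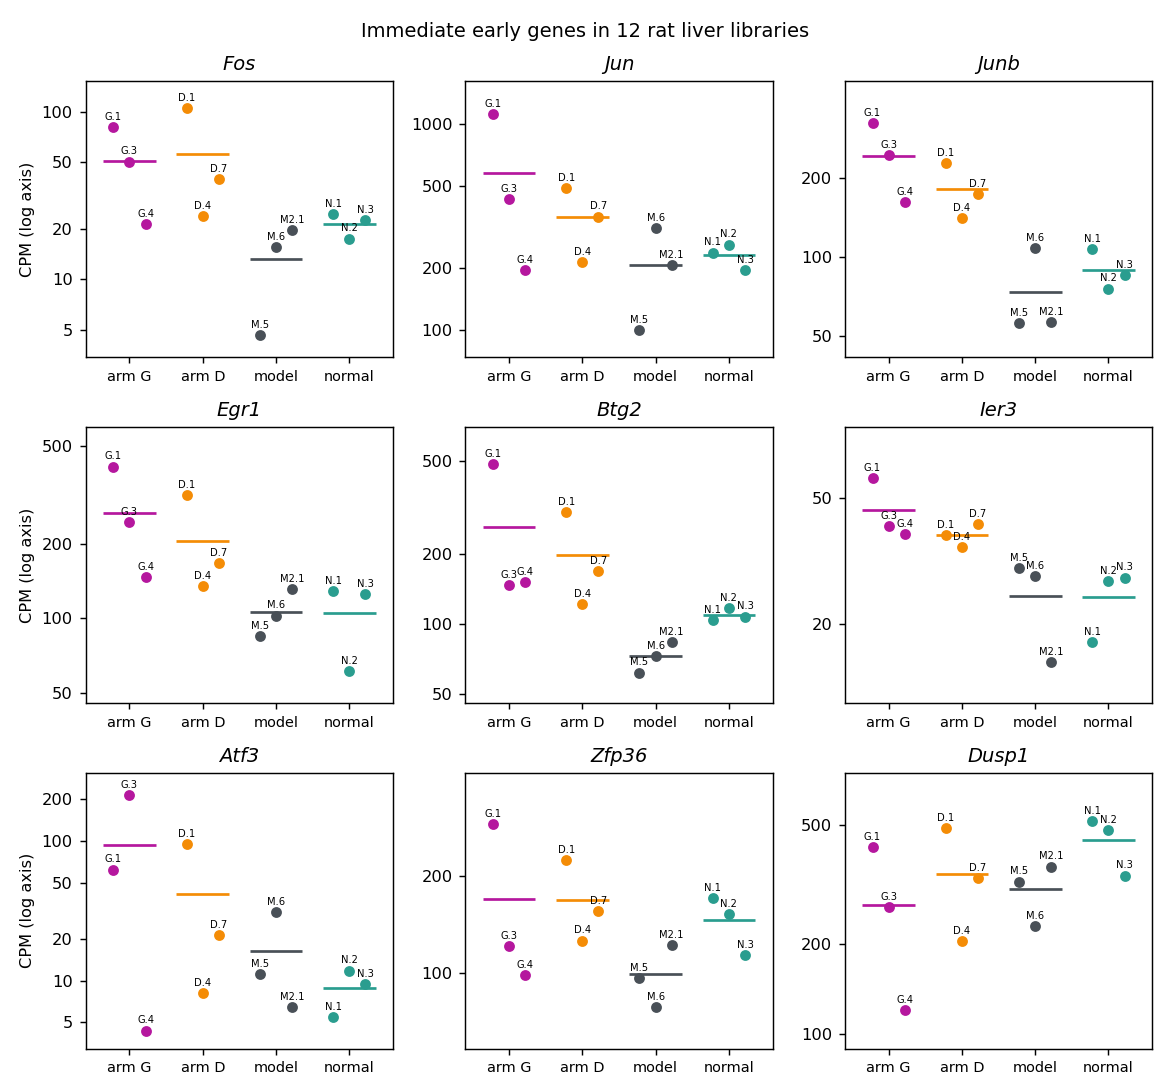
Level of each member in the 12 libraries, in CPM on a log axis, by group (arm G, arm D, model, normal). Points are libraries with their names, and horizontal lines are group means. Junb is between 140.2 and 323 CPM in the 6 didymin libraries and at most 108 CPM in the other 6, while Dusp1 is highest in the normal library N.1.

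The subunits of AP-1, the dimeric transcription factor of Fos and Jun proteins, include Junb, the member with the smallest p in both arms against the model. Junb, whose protein pairs with Fos proteins, had 323, 245 and 162 CPM in G.1, G.3 and G.4, and 228.5, 140.2 and 174 CPM in D.1, D.4 and D.7. Model livers had 55.9, 108 and 56.3 CPM (M.5, M.6 and M2.1) and normal livers 107, 75.7 and 85.0 CPM (N.1, N.2 and N.3). All 6 didymin libraries were above all 6 others, and the arms overlapped each other. The share of tested genes with this split was not counted. It is at most 1.21%, the share with both arms above the model alone. The log2 fold change was 1.73 ± 0.35 (SE) in arm G against the model (edgeR adjusted p = 0.9997), where the unadjusted p of 0.000346 ranked 1 of 12355. Arm D against the model gave 1.30 ± 0.35 (edgeR adjusted p = 0.7834). DESeq2 gave Junb an adjusted p of 0.0192 in arm G against the model, where the adjusted p of the other alternatives ran from 0.6396 to 1.0, and 0.0261 in arm G against normal, where they ran from 0.4308 to 0.9963. In the authors' deposited table, Junb had an adjusted p of 0.303 in arm G against the model, and 0 of the 9 members had one under 0.05 in any of the 3 tables. The authors' deposited tables had 1 gene under 0.05 in arm G against the model (0.00627% of genes with an adjusted p), 7 in arm D against the model (0.0436%) and 53 in normal liver against the model (0.333%).

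Fos encodes the inducible partner of the Jun proteins. Fos had 80.7, 50.2 and 21.4 CPM in arm G, 105, 23.8 and 39.5 CPM in arm D, 4.62, 15.6 and 19.5 CPM in the model, and 24.5, 17.4 and 22.4 CPM in normal liver. Both arms lay above the model throughout, G.4 and D.4 only narrowly, and both overlapped normal liver. The log2 fold change was 1.94 ± 0.63 (SE) in arm G against the model and 2.08 ± 0.63 in arm D against the model, with unadjusted p of 0.00948 and 0.00637 and adjusted p of 0.9997 and 0.7834 (edgeR). Without D.1 the value in arm D was 1.25. Jun, the DNA-binding partner of Fos in AP-1, had 1119, 434 and 195 CPM in arm G, 488, 213 and 356 CPM in arm D, 99.6, 312 and 208 CPM in the model, and 238, 260.2 and 195 CPM in normal liver. The groups overlapped for Jun, since G.4 lay at the level of N.3 and D.4 lay between M2.1 and N.1. Its log2 fold change was 1.497 ± 0.579 (SE) in arm G against the model and 0.77 ± 0.57 in arm D against the model (edgeR adjusted p = 0.9997 and 0.8299). Without G.1 the value in arm G was 0.60.

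Atf3, a stress-induced factor of the ATF family that pairs with Jun proteins, was the most variable member. It had 62.7, 215 and 4.37 CPM in arm G, 95.2, 8.15 and 21.2 CPM in arm D, 11.1, 31.04 and 6.45 CPM in the model, and 5.44, 11.8 and 9.40 CPM in normal liver. Both the highest and the lowest library were in arm G, 49.2-fold apart. The SD of its log2 CPM within groups was 1.80, above that of 99.6% of the tested genes, where the median gene had 0.50. Its log2 fold change was 2.54 ± 1.12 (SE) in arm G against the model and 1.36 ± 1.09 in arm D against the model (edgeR adjusted p = 0.9997 and 0.8415). Leaving out G.3 gave 1.07 in arm G, and leaving out D.1 gave −0.13 in arm D. Across the 12 libraries Atf3 went with the mitochondrial share at r = 0.637 (permutation p = 0.025, 0.225 after adjustment over 9 members) and rho = 0.545 (p = 0.0705, adjusted 0.403), and r was 0.332 without G.3 and M.6.

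Egr1, a zinc finger transcription factor, had 412, 246 and 147 CPM in arm G, 315, 135 and 167 CPM in arm D, 84.4, 103 and 131 CPM in the model, and 129, 61.2 and 126 CPM in normal liver. The 6 didymin libraries were again above the other 6, with D.4 nearest to M2.1. The log2 fold change against the model was 1.34 ± 0.44 (SE) in arm G and 0.96 ± 0.44 in arm D (edgeR adjusted p = 0.9997 and 0.7882). It was 0.88 without G.1 in arm G and 0.51 without D.1 in arm D. Btg2, an antiproliferative protein that recruits the deadenylation machinery to mRNA, had 483, 147 and 151 CPM in arm G, 301, 121 and 169 CPM in arm D, 61.7, 72.8 and 83.3 CPM in the model, and 104, 117 and 107 CPM in normal liver. The arms overlapped each other, both lay wholly above normal liver, and normal liver lay wholly above the model. Its log2 fold change was 1.84 ± 0.47 (SE) in arm G against the model (edgeR adjusted p = 0.9997), where its p ranked 8 of 12355. It was 1.44 ± 0.46 in arm D against the model and −0.59 ± 0.45 in the model against normal liver (edgeR adjusted p = 0.7834 and 0.866). Against the model it was 1.03 without G.1 in arm G and 0.998 without D.1 in arm D. Ier3, a small protein that affects cell survival and ERK signalling, had 58.0, 40.95 and 38.5 CPM in arm G, 38.2, 35.05 and 41.3 CPM in arm D, 30.1, 28.4 and 15.2 CPM in the model, and 17.5, 27.3 and 28.1 CPM in normal liver. Apart from G.1 its spread within the arms was narrow, and all 6 didymin libraries exceeded the other 6, a split not counted over all tested genes. The log2 fold change against the model was 0.90 ± 0.30 (SE) in arm G and 0.64 ± 0.30 in arm D (edgeR adjusted p = 0.9997 and 0.7882).

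The feedback genes Zfp36 and Dusp1 were the members without an unadjusted p under 0.05 in arm G against the model. Zfp36 had 289, 121 and 98.1 CPM in arm G, 224.5, 126 and 155 CPM in arm D, 96.1, 78.1 and 122 CPM in the model, and 171, 152 and 113 CPM in normal liver. Arm D was above the model without overlap, while arm G overlapped the model and both arms overlapped normal liver. Its log2 fold change against the model was 0.78 ± 0.40 (SE) in arm G and 0.77 ± 0.40 in arm D, and against normal liver 0.22 ± 0.39 and 0.21 ± 0.39 (edgeR adjusted p = 0.9997, 0.8008, 0.8755 and 0.9906). Without G.1 the value in arm G against the model was 0.14. Against normal liver the sign turned without G.1 in arm G (−0.42) and without D.1 in arm D (−0.051). Dusp1 had 420.5, 265.5 and 120.0 CPM in arm G, 488, 204 and 332 CPM in arm D, 322, 229 and 362 CPM in the model, and 515, 479 and 337.5 CPM in normal liver. All its groups overlapped, and the mean was highest in normal liver, with 269 ± 150 CPM in arm G, 341 ± 143 CPM in arm D, 304 ± 68.5 CPM in the model and 444 ± 93.8 CPM in normal liver (SD, n = 3 each). The log2 fold change of Dusp1 was −0.18 ± 0.44 (SE) in arm G against the model and 0.17 ± 0.44 in arm D against the model (edgeR adjusted p = 0.9997 and 0.9589). The sign turned without G.4 in arm G (0.16), and without D.1 (−0.18) or M.6 (−0.0044) in arm D.

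**Figure D2:**
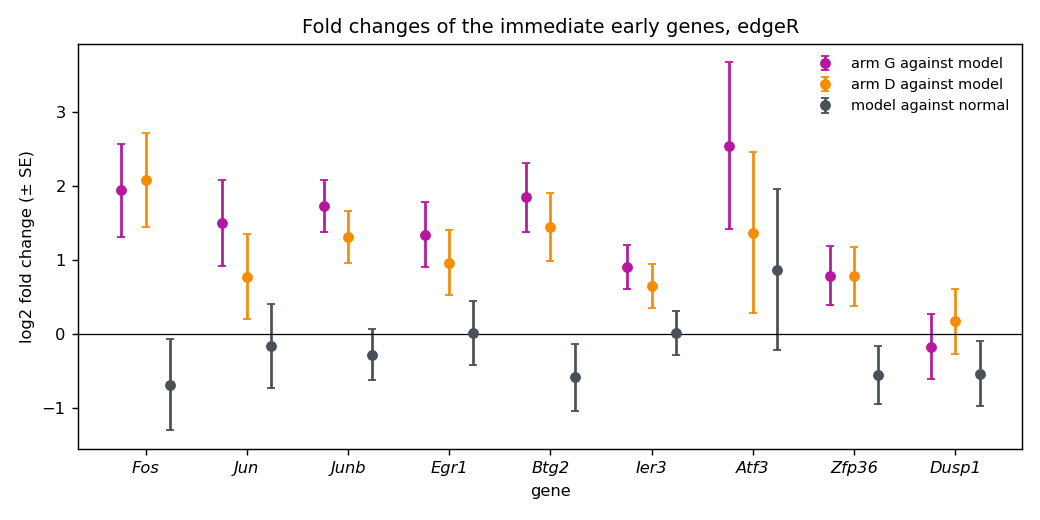
Log2 fold change of each member from edgeR, with bars of 1 SE, for arm G against the model, arm D against the model and the model against normal liver. Values in arm G against the model run from −0.18 (Dusp1) to 2.54 (Atf3), those of the model against normal liver from −0.69 (Fos) to 0.86 (Atf3).

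Read as a group, the median log2 fold change of the 9 members was 1.497 in arm G against the model, beside 0.0005 over all tested genes. It was 0.96 in arm D against the model, beside −0.04 over all tested genes, and −0.28 in the model against normal liver, beside 0.03. Without G.1 the median in arm G was 0.88, and without D.1 that in arm D was 0.51. Libraries of arm G lay above all model libraries for 5 of 9 members (Fos, Junb, Egr1, Btg2 and Ier3), against 2.61% of tested genes, and below them for 0, against 2.09%. Libraries of arm D lay above all model libraries for these 5 and Zfp36, against 5.93% of tested genes, and below them for 0, against 6.71%. Only Btg2 had all model libraries below all normal ones, against 5.29% of tested genes, and 0 members had them above, against 5.25%. With both arms pooled, a grouping added after the data were seen, 5 of 9 lay above the model without overlap, against 1.21% of tested genes, and 4 of 9 (Junb, Egr1, Btg2 and Ier3) above normal liver, against 2.6%. The comparisons with the model share its 3 libraries.

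Set against normal liver, arm G had 6 of 9 members higher at an unadjusted p under 0.05, against 4.42% of tested genes, and arm D 4 of 9, against 4.22%. Junb, Egr1, Btg2 and Ier3 lay above normal liver without overlap in each arm, against 5.51% of tested genes in arm G and 8.58% in arm D. Atf3 had a log2 fold change of 3.40 ± 1.17 (SE) in arm G and 2.22 ± 1.12 in arm D (edgeR adjusted p = 0.7232 and 0.8309), but 1.93 without G.3 in arm G and 0.72 without D.1 in arm D. Junb, with the smallest p of the members in both, had 1.44 ± 0.35 in arm G and 1.02 ± 0.35 in arm D (edgeR adjusted p = 0.475 and 0.576). Between arm G and arm D, 0 of 9 had an unadjusted p under 0.05, where 2.45% of tested genes were higher and 0.971% lower in arm G. The arms overlapped for all 9, where 4.08% of tested genes lay higher and 3.35% lower in arm G without overlap. The differences between the arms ran from −0.35 ± 0.44 (SE) for Dusp1 to 1.18 ± 1.07 for Atf3 on the log2 scale, so with 3 libraries an arm their order was not resolved for any member.

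Single libraries carried part of these counts. In arm G against the model the count of 7 was 4 without G.1 and 5 without M.5, and 6 without both G.3 and M.6. The share of tested genes under 0.05 in either direction was 2.32% there, and 2.92%, 2.48% and 4.67% in these settings. In arm D against the model the count of 4 was 1 without D.1, and it was 4 without M.6. The same share was 6.28% with all libraries, 6.02% without D.1 and 3.22% without M.6. In arm D against normal liver the count of 4 was 0 without D.1, 1 without N.1, 1 without N.2, 2 without N.3, and 2 without both G.3 and M.6. The share was 6.34% with all libraries, and 6.23%, 4.03%, 3.52%, 7.37% and 10.2% in these settings. In arm G against normal liver the count of 6 was 2 without G.1 and 4 without N.1. Without G.1 Dusp1 was lower at an unadjusted p under 0.05 (log2 fold change −1.21). The share was 6.59% with all libraries, 11.2% without G.1 and 2.95% without N.1. G.1 had the highest level of 6 members, D.1 that of Fos, G.3 that of Atf3 and N.1 that of Dusp1. M.5 had the lowest level of 4 members (Fos, Jun, Junb and Btg2) and G.4 that of Atf3 and Dusp1. The mean of the members, each standardized over the 12 libraries, was 1.64, 0.64 and −0.45 SD in G.1, G.3 and G.4, and 1.18, −0.26 and 0.38 SD in D.1, D.4 and D.7. It was −1.01, −0.51 and −0.68 SD in M.5, M.6 and M2.1, and −0.24, −0.32 and −0.37 SD in N.1, N.2 and N.3. On this mean G.4 lay below all normal libraries, and D.4 within their range, so 1 library of each arm had no high mean level.

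Most pairs of members were positively correlated across libraries, and for some of them this rested on 2 libraries. Of 36 pairs, 34 had a positive Pearson correlation of log2 CPM over the 12 libraries, with a median r of 0.651. An adjusted permutation p under 0.05 was found for 21 pairs (14 by Spearman's rho). The share of such pairs among all tested genes was not computed, so these counts have no background. The permutations moved libraries across groups, so differences between groups can add to these correlations. Without the 2 libraries farthest out in the first gene of a pair, the r of these 21 ran from 0.078 to 0.920, and it was under 0.6 for 7. Egr1 and Zfp36 had r = 0.652 (adjusted permutation p = 0.0409) and rho = 0.552 (adjusted p = 0.113), and r = 0.078 without D.1 and G.1. Egr1 and Btg2 had r = 0.846 (adjusted permutation p = 0.0027) and rho = 0.846 (adjusted p = 0.00846), and r = 0.563 without D.1 and G.1. Jun and Zfp36 had r = 0.731 (adjusted permutation p = 0.0188) and rho = 0.636 (adjusted p = 0.0608), and r = 0.424 without G.1 and M.5. The pair of Fos and Btg2 had r = 0.881 (adjusted permutation p = 0.0027) and rho = 0.825 (adjusted p = 0.00885), and r = 0.877 without the libraries farthest out in Fos, D.1 and M.5. Fos and Egr1 had r = 0.863 (adjusted permutation p = 0.0027) and rho = 0.881 (adjusted p = 0.00576), and r = 0.915 without D.1 and M.5. Dusp1 went with Zfp36 at r = 0.648 (adjusted permutation p = 0.0409) and rho = 0.713 (adjusted p = 0.0302), and 0.633 without D.1 and G.1. With the other 7 members its r was −0.25 to 0.288.

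Within groups the picture for Dusp1 was another one. Taken as deviations from the group means, the r of Dusp1 was 0.909 with Zfp36, 0.762 with Btg2, 0.706 with Egr1, 0.705 with Jun and 0.67 with Fos. Over all libraries the same pairs had 0.648, 0.209, 0.094, 0.288 and 0.251. With Atf3, Junb and Ier3 the deviations of Dusp1 had a lower r, of 0.611, 0.507 and 0.101, and the levels 0.216, −0.093 and −0.25. In each arm the library highest in Fos, Egr1 and Btg2 (G.1 or D.1) was also highest in Dusp1. The same held for M2.1 in the model. Of the normal libraries N.1 was highest in Fos, Egr1 and Dusp1, and N.2 in Btg2. Below the highest library, Fos lacked a shared order with Dusp1 in the model and normal groups. M.5 was lowest in Fos (4.62 CPM) but had 322 CPM of Dusp1, above M.6 (229 CPM). N.2 was lowest of the normal libraries in Fos (17.4 CPM) but had 479 CPM of Dusp1, above N.3 (337.5 CPM). The group means of Dusp1 were ordered otherwise than those of Fos, Egr1 and Btg2. The median r of the 36 pairs of deviations was 0.658. Ier3 stood apart within groups, with an r of −0.115 with Fos and −0.035 with Egr1. These deviations share 12 libraries and their depth, carry no test, and were not recomputed without G.1 and D.1.

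**Figure D3:**
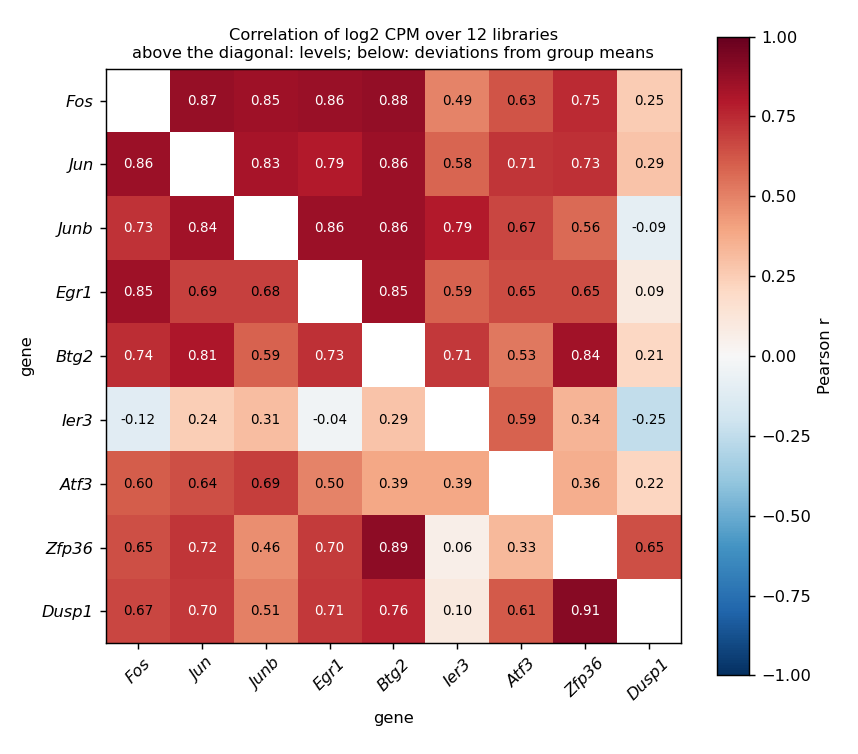
Pearson r of log2 CPM between pairs of members over 12 libraries, above the diagonal for the levels and below it for deviations from group means. In the Dusp1 column the levels give −0.25 to 0.65, and in the Dusp1 row the deviations give up to 0.91 (Zfp36).

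A ratio of 2 genes within a library needs no scaling between libraries, so each member was also divided by Dusp1, a choice made after the values were seen and given with no test. Fos had 0.192, 0.189 and 0.178 reads per read of Dusp1 in G.1, G.3 and G.4, and 0.215, 0.117 and 0.119 in D.1, D.4 and D.7. The same ratio was 0.0143, 0.0681 and 0.0539 in the model libraries, and 0.0475, 0.0364 and 0.0665 in the normal ones. G.4, the library of arm G with the lowest levels of Fos and Dusp1, thus had nearly the same ratio as G.1. Zfp36 per Dusp1 was 0.455 to 0.818 in arm G, 0.460 to 0.616 in arm D, 0.298 to 0.342 in the model and 0.318 to 0.335 in normal liver. Egr1 per Dusp1 was 0.926 to 1.22 in arm G, 0.504 to 0.662 in arm D, 0.262 to 0.449 in the model and 0.128 to 0.372 in normal liver. Btg2 per Dusp1 was 0.552 to 1.26 in arm G, 0.508 to 0.616 in arm D, 0.192 to 0.318 in the model and 0.201 to 0.319 in normal liver.

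For these 4 members (Fos, Egr1, Btg2 and Zfp36) the ratio was higher in all 6 didymin libraries than in all 6 others, which held for 15 of 12354 genes (0.121%). Arm G was above the model in 7 of 8 ratios, against 1.27% of genes, and arm D in 4 of 8, against 1.11%. Arm G was above normal liver in 8 of 8, against 10.8% of genes, and arm D in 7 of 8, against 7.27%. Jun, Junb and Egr1 per Dusp1 were higher in all of arm G than in all of arm D, against 0.898% of genes. For Jun this ratio was 1.63 to 2.66 in arm G and 0.998 to 1.07 in arm D. Because every ratio has the same denominator, these counts are not separate pieces of evidence.

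**Figure D4:**
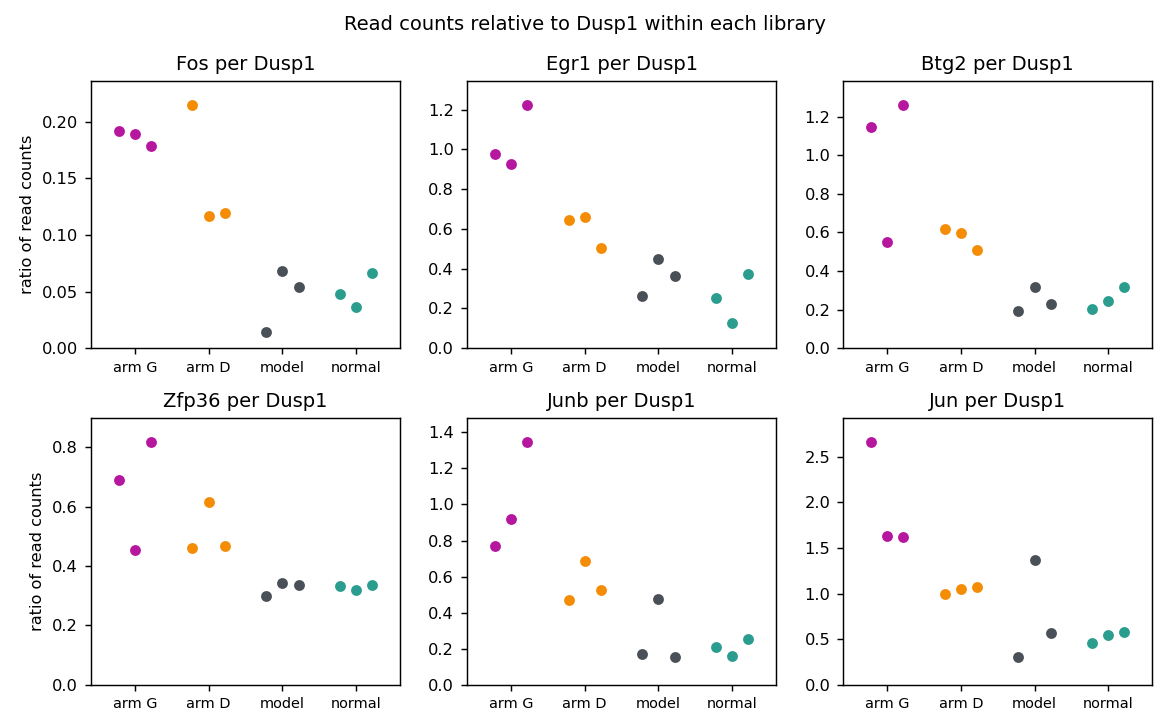
Read counts of 6 members per read of Dusp1 in each library, on linear axes from 0, by group (arm G, arm D, model, normal). Points are libraries. For Fos, Egr1, Btg2 and Zfp36 the 6 didymin points lie above the other 6, and for Junb D.1 (0.468) lies just below M.6 (0.473).

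The genes most like the members' mean were looked up among the 12346 other tested genes. Over the 12 libraries the nearest was Jund, another AP-1 subunit, with r = 0.967, followed by Gdf15 (0.850), a stress-induced hormone, and Egr2 (0.840), a relative of Egr1. Rnf185 (0.804), Paox (0.782), Nr4a1 (0.779), Ppp1r15a (0.773), Cyr61 (0.764), Nuak2 (0.759) and Tgif1 (0.757) completed the 10. Spearman's rho exceeded r only for Paox (0.909) and Nuak2 (0.825). It was 0.811 for Jund, 0.664 for Gdf15, 0.594 for Egr2 and, at the lowest, 0.441 for Tgif1. Of these, 6 were in the lists of related genes described next, which hold 0.956% of the other tested genes. The 10 genes were picked by the members' own levels, and the lists were chosen with earlier results of these data known. The overlap is therefore a description and no separate support. Jund had 340, 200.2 and 144 CPM in arm G, 273, 144 and 177 CPM in arm D, 107.5, 132 and 112 CPM in the model, and 134, 106 and 136.5 CPM in normal liver. All 6 didymin libraries were above the other 6, for a gene picked by its likeness to the members' mean. Nr4a1, an immediate early nuclear receptor, had 101, 136.5 and 7.41 CPM in arm G, 67.6, 22.03 and 17.6 CPM in arm D, 19.2, 13.04 and 8.13 CPM in the model, and 14.1, 37.9 and 23.5 CPM in normal liver. As with Atf3, its highest and its lowest library were both in arm G.

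**Figure D5:**
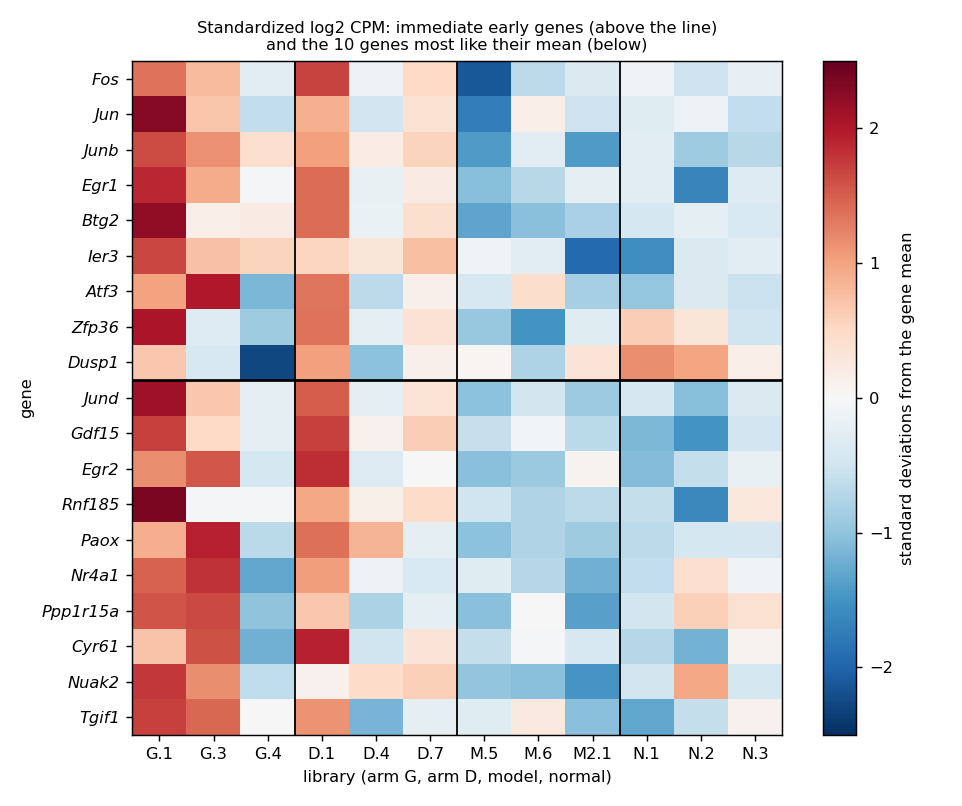
Log2 CPM of the 9 members and of the 10 genes most like their mean, standardized per gene, in SD from the gene's mean over 12 libraries (colour). Columns are libraries in the order arm G, arm D, model, normal. G.1 and D.1 are high in most rows, while G.4 (−0.45 SD on the members' mean) and D.4 (−0.26 SD) are not.

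Of 12 lists of related genes, 0 genes passed the adjusted threshold in any comparison, and their median log2 fold changes stand beside medians over all tested genes of 0.0005 in arm G and −0.04 in arm D against the model. Among the other AP-1 and ATF subunits, 10 of 13 passed the filter. Jund had a log2 fold change of 0.96 ± 0.34 (SE) in arm G against the model and 0.76 ± 0.34 in arm D against the model (edgeR adjusted p = 0.9997 and 0.7882). Jdp2, which represses AP-1 sites, had 0.81 ± 0.41 and 1.02 ± 0.41 in the same comparisons (edgeR adjusted p = 0.9997 and 0.7863). The medians of the 10 were 0.43 in arm G and 0.40 in arm D. Among 4 tested EGR and NAB genes, Egr2 had 1.99 ± 0.83 (SE) in arm G and 1.86 ± 0.83 in arm D against the model (edgeR adjusted p = 0.9997 and 0.7882), at means of 5.58 ± 3.81 CPM in arm G, 5.12 ± 5.59 CPM in arm D and 1.36 ± 0.89 CPM in the model (SD, n = 3 each). Nab1, a corepressor of EGR proteins, had −0.15 ± 0.24 in arm G, and Egr3 had 1.02 ± 1.07 in arm D (edgeR adjusted p = 0.9997 and 0.8759).

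The 8 nuclear receptor and KLF genes had medians of 0.35 in arm G and 0.55 in arm D against the model. Nr4a1 had a log2 fold change of 2.60 ± 0.84 (SE) in arm G and 1.41 ± 0.81 in arm D (edgeR adjusted p = 0.9997 and 0.8008), and Klf4, a zinc finger factor, 0.93 ± 0.41 in arm D (adjusted p = 0.7882). Of 26 other immediate early genes, 17 had a log2 fold change above 0 in arm G against the model and 16 in arm D against the model, as did 6183 and 5773 of the 12355 tested genes, with medians of 0.25 and 0.18. The smallest p among them was that of Pim1, a kinase, at 1.12 ± 0.45 in arm G and 1.28 ± 0.45 in arm D (edgeR adjusted p = 0.9997 and 0.7834). Ier5 followed in arm G at 0.76 ± 0.32 and Id3, an inhibitor of bHLH factors, in arm D at 0.71 ± 0.34 (edgeR adjusted p = 0.9997 and 0.7981).

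The other 9 MAP kinase phosphatases had medians of 0.52 in arm G and 0.44 in arm D against the model, and 7 and 6 of them lay above 0. Dusp6, which acts on ERK, had 98.0, 39.7 and 47.95 CPM in arm G, 38.2, 38.8 and 51.4 CPM in arm D, 32.4, 31.3 and 31.1 CPM in the model, and 32.6, 70.1 and 27.1 CPM in normal liver. Both arms lay above a narrow model group, and only G.1 stood above N.2. The 6 tested relatives of Zfp36 and other AU-rich element binding proteins had medians of −0.06 in arm G and −0.21 in arm D, and the 4 BTG and TOB genes −0.15 and −0.30. Among 19 MAP kinase, SRF and CREB genes, the medians were 0.07 and 0.01, and Creb1, the CRE-binding factor, had 1.24 ± 0.32 CPM in arm G, 0.893 ± 0.065 CPM in arm D and 2.33 ± 1.20 CPM in the model (SD, n = 3 each). Against the model its edgeR adjusted p was 0.9997 in arm G and 0.7834 in arm D.

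Of 9 genes of NF-kB feedback, 8 were above 0 in each arm against the model, with medians of 0.38 in arm G and 0.45 in arm D. Socs3, an inhibitor of cytokine signalling, had 4.98, 2.38 and 8.59 CPM in arm G, 1.77, 8.78 and 4.78 CPM in arm D, 1.30, 2.07 and 1.30 CPM in the model, and 4.80, 8.59 and 3.88 CPM in normal liver. It was lower in the model than in normal liver without overlap, and its high libraries (G.4 and D.4) were not those of the members. Among 8 stress targets of ATF4, Gdf15 had 107, 33.2 and 16.3 CPM in arm G, 108.5, 22.8 and 37.0 CPM in arm D, 11.8, 19.4 and 10.7 CPM in the model, and 6.92, 4.81 and 12.9 CPM in normal liver. Ppp1r15a, a subunit of the phosphatase that acts on eIF2 alpha, had a log2 fold change of 1.36 ± 0.50 (SE) in arm G and 0.53 ± 0.49 in arm D against the model (edgeR adjusted p = 0.9997 and 0.8618). The medians of that list were 0.30 in arm G and −0.23 in arm D. The 8 tested heat shock genes had medians of −0.08 and −0.15, and the 7 glucocorticoid response genes 0.02 and −0.27. Against normal liver the glucocorticoid medians were −0.60 in the model, −0.62 in arm G and −0.71 in arm D. Over all tested genes these medians were 0.03, 0.01 and −0.01. Of the 7 genes, 2, 2 and 1 lay above 0 in these comparisons. Per2, with the smallest p of the list in the model against normal liver, was higher there, at 2.63 ± 0.75 (SE, edgeR adjusted p = 0.7452). Dusp1 and Zfp36 are themselves known glucocorticoid targets, and a link of this list to them was not tested.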

How the data were processed

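RNA was extracted from rat liver with Trizol and sequenced after library preparation with an NEBNext Ultra kit, as the labels' protocols state. The analysis starts from raw counts of reads per gene that the authors deposited in 3 tables of 6 libraries each, per the file headers, with the model libraries in all 3. The aligner, counting tool, annotation and use of strand were not given in the sources used here. The submitters' processing notes name DESeq2 and mm9, a mouse build, both without a version, so no position of a gene is taken from them and the upstream sequences are those of RefSeq for GRCr8. The authors' deposited tables also give log2 fold changes, p-values and adjusted p-values, quoted only in sentences that name that source. The 36 other per-sample columns were not used. Values per gene length are among them, so levels are not compared between genes.

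Columns were matched to groups by their letters and not to single samples. The labels do not say which animal a library came from, so the spread that p-values measure may be technical. The test was edgeR 4.0.16 under R 4.3.3 (filterByExpr on the groups, TMM, 1 quasi-likelihood fit of all 12 libraries with a mean per group, 8 residual degrees of freedom), with Benjamini-Hochberg adjustment over 12355 genes and a threshold of 0.05. The common biological coefficient of variation was 0.409. An SE is the log2 fold change divided by the square root of the F statistic. Alternatives were DESeq2 1.42.0, limma-voom 3.58.1, no TMM, mitochondrial counts left out, no low-count filter, only the 2 groups compared, and libraries left out. Correlations use log2 CPM (prior count 2) and 100000 permutations.

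The members and the lists were chosen with earlier results of these data known. All members are named. Of each list, the 1 or 2 genes with the smallest p in an arm against the model may be named, as are the 10 genes nearest to the mean of the members. In the lists, 5 names were replaced by an older symbol of the tables, and names that share a row count once.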

Additional observations from a re-analysis of the deposited data

Results flagged for a closer look

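Among the 6 didymin libraries taken as 1 group, Jun was 1119 CPM in G.1, far above the next library, D.1, at 488 CPM, relative to the range of the other libraries down to 195 CPM. Ier3 was 58.0 CPM in G.1, where the other 5 didymin libraries lay between 35.05 and 41.3 CPM. In both cases the gap from G.1 to the nearest library, as a share of the whole range, passed Dixon's critical value of 0.625 for 6 samples. The value was applied to CPM with both arms pooled. On log2 CPM the gap for Jun was a smaller share of the range, with 10.13 in G.1, 8.93 in D.1 and 7.61 in G.4. There were 9 such groups examined, 1 per member. Chance alone passes that value in about 1 of 20 if values are normally distributed, which was not checked for CPM.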

How the results depend on the processing

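Leaving out libraries and changing the scaling, filter or test left the number of members past the adjusted threshold at 0 in each comparison, with DESeq2 as the exception. DESeq2 called 1 member, Junb, in arm G against the model (among 5 genes in all) and arm G against normal liver (among 51), and 1 member in the test for any group and in both comparisons of the pooled arms. The median log2 fold change of the members kept its sign under each alternative in the comparisons with the model, from 0.88 without G.1 to 1.95 without G.3 and M.6 in arm G against the model and from 0.51 without D.1 to 1.22 without G.3 and M.6 in arm D against the model. Of 702 alternative fold changes of single members, 36 had the other sign, in 16 of 54 results, none of which had passed the threshold. In the model against normal liver, Ier3 was −0.030 with limma-voom, −0.10 without TMM, −0.0029 without mitochondrial counts, −0.0088 without the low-count filter and −0.11 without G.3 and M.6. Egr1 was −0.0031 without TMM and −0.0069 without the filter, and Atf3 was −0.024 without G.3 and M.6. In arm G against arm D, Zfp36 was −0.0014 with DESeq2, −0.14 with limma-voom, −0.14 without TMM and −0.014 without the filter, and Atf3 was −0.31 without G.3 and M.6. The cause was not tested. Leaving out 1 library at a time turned the sign in these. In arm G against model the range was −0.67 to 0.16 for Dusp1. In arm D against model the range was −0.13 to 2.24 for Atf3, −0.18 to 0.43 for Dusp1. In model against normal the range was −0.59 to 0.17 for Jun, −0.18 to 0.26 for Ier3, −0.023 to 1.24 for Atf3, −0.27 to 0.18 for Egr1. In arm G against normal the range was −0.42 to 0.48 for Zfp36. In arm D against normal the range was −0.051 to 0.38 for Zfp36. In arm G against arm D the range was −0.66 to 0.68 for Fos, −0.83 to 0.001 for Dusp1, −0.63 to 0.27 for Zfp36, −0.17 to 1.13 for Jun, −0.075 to 0.82 for Egr1, −0.41 to 0.84 for Btg2, −0.31 to 2.67 for Atf3. The median of the members in arm G against arm D, 0.38 with all libraries, ran from −0.17 without G.1 to 0.68 without D.1. The other leave-one-out fold changes of single members kept their sign. No paired analysis was possible because the columns do not carry the replicate numbers of the labels.

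With 3 libraries a group and a wide spread between them, small changes of a member are not detectable at this depth of replication. Larger ones also missed the edgeR threshold, such as 3.83-fold for Fos and 3.31-fold for Junb in arm G against the model. A p that misses the threshold does not show that groups are alike. No label gives the order of processing or a batch, so none is set beside the results. G.3 and M.6 combine a high mitochondrial share, low hepatocyte markers and high neutrophil markers, and their part in the results was not tested beyond leaving them out.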
